A study of Mus musculus with 20 samples.

Results

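The urea cycle and glutamine enzymes described here are 10 genes of ammonia disposal, out of 28786 gene names on the array: Nags, Cps1, Slc25a15, Otc, Ass1, Asl, Arg1, Arg2, Gls2 and Glul. The members were taken by name, from probes other than controls whose gene name, or current symbol by accession, was that of a member. This gave 15 probes for the 10 genes, each gene was read by its brightest probe in liver, and 9 of the 10 genes were bright enough to be tested in both tissues. Liver and white adipose tissue (WAT) RNA came from male mice of the C57BL/6 background at the age of 7 months, and every one had been kept for 21 weeks on a high fat diet (HFD), whose fat content the labels give as 35%. The 4 groups were liver of wild type mice, WT(HFD), liver of mice with a whole-body deletion of Cd44, CD44KO(HFD), and WAT of each genotype, with 5 samples per group and 1 array per sample. The CD44KO line had been backcrossed onto C57BL/6J, and no group on a normal diet was on the arrays, so that the HFD was shared by every sample.

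The urea cycle turns ammonia from amino acid breakdown into urea, and in the liver it runs mainly in periportal hepatocytes. Its first steps, which make carbamoyl phosphate and citrulline, lie in the mitochondria, and the later steps, which make argininosuccinate, arginine and urea, lie in the cytosol. Liver glutaminase (Gls2) feeds ammonia into the cycle, whereas glutamine synthetase (Glul), in the pericentral hepatocytes, takes up the ammonia that has escaped it.

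Each value is the log2 of the processed signal intensity of a spot minus the 75th percentile of its array, so that 0 is the 75th percentile. That percentile was an intensity of 432.7 to 574.6 on the 10 liver arrays and of 1541 to 2792 on the 10 WAT arrays, and levels are compared between arrays for the same probe and never between probes. Between 57.4% and 61.9% of spots were well above background on the liver arrays and between 63.2% and 89.5% on the WAT arrays, where WT(HFD) replicate 1 stood apart with the highest share. The deleted gene was lower in CD44KO(HFD), with a log2 difference of -4.21 in liver (limma, adjusted p = 6.65e-06) and of -4.57 in WAT (adjusted p = 7.63e-06) at the brightest Cd44 probe. On the liver arrays the hepatocyte markers were well above background for 9 of 9 genes in every sample, and on the WAT arrays the adipocyte markers were so for 10 of 10.

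Some of the probes can be placed on the transcript by their own letters, and these are shown because they read spliced mRNA or lie in the coding sequence. The 2 Ass1 probes overlap, and the capitals mark the 20 bases that both contain, so that they are not independent readings. The second is shown up to its first in-frame stop codon.
Ass1, first probe, chr2:31526070-31527709, plus strand: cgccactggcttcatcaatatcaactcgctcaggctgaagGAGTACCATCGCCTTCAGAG
Ass1, second probe, bases 1 to 39: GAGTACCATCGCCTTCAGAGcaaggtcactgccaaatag
Otc, second brightest probe, chrX:8709867-8733514, plus strand: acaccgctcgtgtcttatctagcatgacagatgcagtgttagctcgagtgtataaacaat
Asl, chr5:129249917-129250502, minus strand: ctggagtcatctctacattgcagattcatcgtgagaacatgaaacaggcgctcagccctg
Positions are those of the files, in build mm7. The genomic span of a 60-base probe exceeded its length by 1580 bases for the first Ass1 probe, by 23588 for Otc and by 526 for Asl, so that each joins sequence from separate stretches of the genome.

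In liver, none of the 9 tested members passed the threshold for a difference between CD44KO(HFD) and WT(HFD) (limma, 10 liver arrays, Benjamini-Hochberg adjusted p under 0.05 over the 24688 probes tested). The background was high, since 13.6% of all probes tested passed, 7.85% higher and 5.75% lower in CD44KO(HFD). At an unadjusted p under 0.05, 4 members differed, Cps1, Nags, Ass1 and Otc, all with the higher mean in CD44KO(HFD). At that level 32.2% of all probes differed, 20.4% with the higher mean in CD44KO(HFD), so that differences of this kind were common in these arrays. The difference was positive for 8 of 9 members, with a median of 0.39 on the log2 scale over the members against 0.08 over all probes tested. Most members shared an order of arrays, given below, so that their signs are not separate readings. The genotypes overlapped for every member, where 7.5% of all probes had every CD44KO(HFD) array above every WT(HFD) array and 4.22% had every one below.

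**Figure D1:**
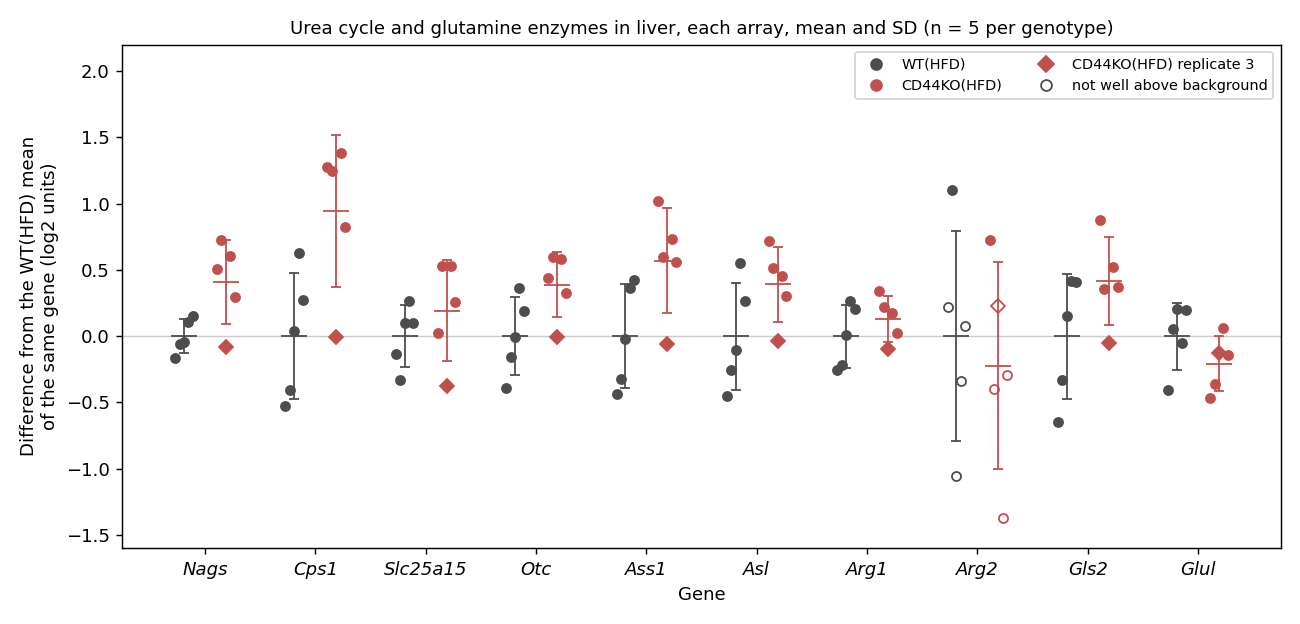
Signal of each member on the 10 liver arrays, as the log2 difference from the mean of the 5 WT(HFD) arrays for the same gene, with the mean and SD of each genotype. In 8 of the 9 tested members the lowest CD44KO(HFD) array was replicate 3, drawn as a diamond, and 4 of 5 CD44KO(HFD) arrays lay above all WT(HFD) arrays for Nags, Cps1 and Ass1.

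Nags makes N-acetylglutamate, the obligate activator of the first enzyme of the cycle. Its brightest probe (chr11:102258443-102258501, plus strand), identified by the symbol in the files and not by the accession, read 5.06, 5.17, 5.19, 5.34 and 5.38 in WT(HFD) replicates 1 to 5. The CD44KO(HFD) replicates read 5.74, 5.96, 5.15, 5.84 and 5.52. All CD44KO(HFD) arrays but replicate 3 were above every WT(HFD) array. The log2 difference was 0.41 ± 0.15 (SE, n = 5 per genotype), a 1.33-fold higher mean, with a limma adjusted p of 0.0846. The two-sided exact permutation p was 0.0476, and this and the other permutation values are unadjusted. A second, dimmer Nags probe, identified by accession, gave 0.26 (limma adjusted p = 0.266, exact permutation p = 0.127).

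Cps1 encodes carbamoyl phosphate synthetase, which brings ammonia into the cycle in the mitochondria, and it had the largest difference of the members. Its only probe (chr1:67470600-67470659, plus strand), identified by the symbol in the files and not by the accession, read 4.60, 4.73, 5.16, 5.75 and 5.40 in WT(HFD). It read 6.40, 6.37, 5.12, 6.51 and 5.95 in CD44KO(HFD). Replicate 3 again lay among the WT(HFD) arrays and the other 4 CD44KO(HFD) arrays lay above all of them. The log2 difference was 0.94 ± 0.30 (SE, n = 5 per genotype; 95% interval 0.28 to 1.61), a 1.92-fold higher mean. The limma adjusted p was 0.0612 and the exact permutation p 0.0397, where 0.00794 is the smallest that the 252 relabellings of 10 arrays can give.

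Slc25a15 encodes the carrier that exchanges ornithine and citrulline across the inner mitochondrial membrane. Its only probe was also identified by the symbol in the files. The level was 0.10 ± 0.23 in WT(HFD) and 0.30 ± 0.38 in CD44KO(HFD) (SD, n = 5 each). The difference of 0.19 was smaller than the spread between replicates (limma adjusted p = 0.503), and the arrays of the genotypes were interleaved.

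Otc, the ornithine transcarbamylase that forms citrulline, read 4.86, 5.09, 5.25, 5.62 and 5.44 in WT(HFD) and 5.69, 5.84, 5.25, 5.84 and 5.57 in CD44KO(HFD) with its brightest probe (chrX:8753291-8753350, plus strand). Here 3 of the 5 CD44KO(HFD) arrays were above all WT(HFD) arrays. The log2 difference was 0.39 ± 0.16 (SE; limma adjusted p = 0.127, exact permutation p = 0.0635). The probe of Otc printed above gave 0.40 (limma adjusted p = 0.0875), and the dimmest of its 3 probes gave 0.63 (adjusted p = 0.0833), so that the 3 probes had the same sign in liver.

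The cytosolic enzymes followed. Ass1, the argininosuccinate synthetase, read 7.31, 7.42, 7.72, 8.11 and 8.17 in WT(HFD) and 8.77, 8.35, 7.69, 8.48 and 8.31 in CD44KO(HFD). As for Nags and Cps1, 4 of 5 CD44KO(HFD) arrays lay above all WT(HFD) arrays and replicate 3 did not. The log2 difference was 0.57 ± 0.23 (SE), a 1.49-fold higher mean, with a limma adjusted p of 0.113 and an exact permutation p of 0.0556. The overlapping second probe gave 0.54 (limma adjusted p = 0.122).

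Asl, the lyase that splits argininosuccinate into arginine and fumarate, read 5.36, 5.55, 5.70, 6.36 and 6.08 in WT(HFD) and 6.53, 6.32, 5.78, 6.26 and 6.11 in CD44KO(HFD). Only CD44KO(HFD) replicate 1 was above all WT(HFD) arrays. The means were 5.81 ± 0.40 and 6.20 ± 0.28 (SD, n = 5 each), a difference of 0.39 (limma adjusted p = 0.209).

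Arg1, the liver arginase that releases urea, differed least among the cytosolic steps, with 6.47 ± 0.24 and 6.61 ± 0.17 and a difference of 0.13 (adjusted p = 0.513). The 95% interval of the Arg1 difference ran from -0.15 to 0.42. Arg2, the mitochondrial arginase, was well above background on 1 WT(HFD) and 1 CD44KO(HFD) liver array and was not tested.

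Of the glutamine enzymes, Gls2 read 5.96, 6.27, 6.75, 7.02 and 7.01 in WT(HFD) and 7.48, 6.96, 6.55, 7.12 and 6.97 in CD44KO(HFD). WT(HFD) replicates 1 and 2 were low and the other 3 WT(HFD) arrays lay within the CD44KO(HFD) range. The means were 6.60 ± 0.47 and 7.02 ± 0.33 (SD, n = 5 each), a difference of 0.42 (limma adjusted p = 0.249). Glul was the only tested member with a negative difference. Its brightest probe (chr1:153870358-153870417, plus strand) read 6.09, 6.55, 6.71, 6.45 and 6.70 in WT(HFD) and 6.03, 6.14, 6.38, 6.56 and 6.36 in CD44KO(HFD). The ranges overlapped, and the difference of -0.21 ± 0.14 (SE) had a limma adjusted p of 0.335. A second and much dimmer Glul probe gave -0.75 (limma adjusted p = 0.066, exact permutation p = 0.0397).

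Most members shared an order of arrays, which was not particular to them. WT(HFD) replicate 1 was the lowest of its genotype for 8 of 9 tested members, all but Slc25a15, and WT(HFD) replicate 4 was the highest for 6. CD44KO(HFD) replicate 3 was the lowest of its genotype for 8 of 9, all but Glul, and lay above all WT(HFD) arrays for 0 members, where CD44KO(HFD) replicates 1, 2, 4 and 5 did so for 7, 5, 6 and 3. That replicate carried the knockout, with a Cd44 level of -3.39 against -4.19 to -3.24 over the CD44KO(HFD) arrays and 0.11 to 0.83 over the WT(HFD) arrays. The summed level of the genes of amino acid breakdown had the same low and high arrays. Within WT(HFD) that sum was lowest in replicate 1 (9.37) and highest in replicate 4 (10.18). Within CD44KO(HFD) it was lowest in replicate 3 (9.87), and replicates 1, 2, 4 and 5 read 10.26 to 10.58, above every WT(HFD) array. Glul followed the order least, with Pearson correlations of 0.03 to 0.28 with the other tested members after genotype means were subtracted. Without CD44KO(HFD) replicate 3, 3 members passed the threshold, Cps1 with a log2 difference of 1.18 (limma adjusted p = 0.0123), Nags with 0.53 (adjusted p = 0.0125) and Ass1 with 0.73 (adjusted p = 0.0343), while 18.8% of all probes passed. Without WT(HFD) replicate 4, Cps1 alone passed, with 1.10 (limma adjusted p = 0.0384), while 15.3% of all probes passed. Over the 10 fits that each left out 1 array, Cps1 passed in 2, and Nags and Ass1 in 1 each. The limma adjusted p of Cps1 went up to 0.137 among these fits. CD44KO(HFD) replicate 3 was singled out for its low values, so leaving it out raises the CD44KO(HFD) means and gives no separate support. The liver arrays lay on 3 slides, each with both genotypes, and within each slide the CD44KO(HFD) mean was the higher for Cps1, Otc, Ass1, Asl, Nags and Gls2 and the lower for Glul. Within slides the difference ran from 0.54 to 1.24 for Cps1, from 0.26 to 1.04 for Ass1 and from 0.11 to 0.64 for Nags. Slide 3 held 1 array of each genotype, so that its values, 1.24 for Cps1 and 1.04 for Ass1, compare single arrays. Slides 1 and 2 held 2 arrays of each genotype.

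Some markers of other cells differed with genotype in the same liver arrays, where 7.85% of all probes tested passed as higher in CD44KO(HFD) and 5.75% as lower. Of the T cell markers 5 of 8 tested were lower in CD44KO(HFD) and 0 higher, with a summed level of 0.94 to 1.65 in WT(HFD) and 0.65 to 1.02 in CD44KO(HFD). Of the stellate cell and fibroblast markers 4 of 10 were lower and 0 higher, with a summed level of 6.65 to 7.17 in WT(HFD) and 6.15 to 6.61 in CD44KO(HFD). CD44KO(HFD) replicate 3 had the highest of these sums in its genotype, 6.61. Within WT(HFD) replicate 1 had the highest, 7.17, and replicate 4 the lowest, 6.65. Of the 9 hepatocyte markers 1 was higher, Apoh, a plasma glycoprotein, with a difference of 0.41 (limma adjusted p = 0.0363), and the summed level was 11.59 to 11.97 in WT(HFD) and 11.90 to 12.19 in CD44KO(HFD). The macrophage markers had no common direction, with 5 of 10 differences positive, 5 negative and a median of -0.04. The one that passed was Itgax, which marks CD11c-bearing cells, lower by 2.01 on the log2 scale (limma adjusted p = 0.0284), while the scavenger receptor Cd163 had a difference of 2.28 (adjusted p = 0.143) and the Kupffer cell marker Clec4f one of 0.75 (adjusted p = 0.129). Albumin (Alb) differed by 0.04 (adjusted p = 0.764), with its spot saturated on some arrays of each genotype. The part of these markers in the differences of the members was not tested. In tissue RNA, fewer cells of a type and less RNA per cell cannot be told apart.

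The liver genes whose pattern was most like that of the 2 members with the largest difference were sought over the 10 liver arrays after the mean of each genotype had been subtracted. For Cps1 the highest Pearson correlations were those of the transcript AK077428 (0.99), Afmid (0.98), an enzyme of tryptophan breakdown, and Ang4 (0.98). For Ass1 they were Hnrnpul1 (0.99), the transcript AK050258 (0.97) and 9630013D21Rik (0.96). These values describe 10 arrays that share their scaling, and they were picked as the highest over all tested probes.

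In WAT, 0 of 9 tested members passed the threshold (limma, 10 WAT arrays), 0 differed at an unadjusted p under 0.05, and 0.0398% of the 27652 probes tested passed, with 14.9% at an unadjusted p under 0.05. The median log2 difference of the members was 0.31, against -0.06 over all probes tested. The intervals were wide. The difference was 0.87 for Cps1, with a 95% interval from -1.21 to 2.95, and 1.79 for Otc, from -0.38 to 3.96, so that the WAT interval of each held its liver value.

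**Figure D2:**
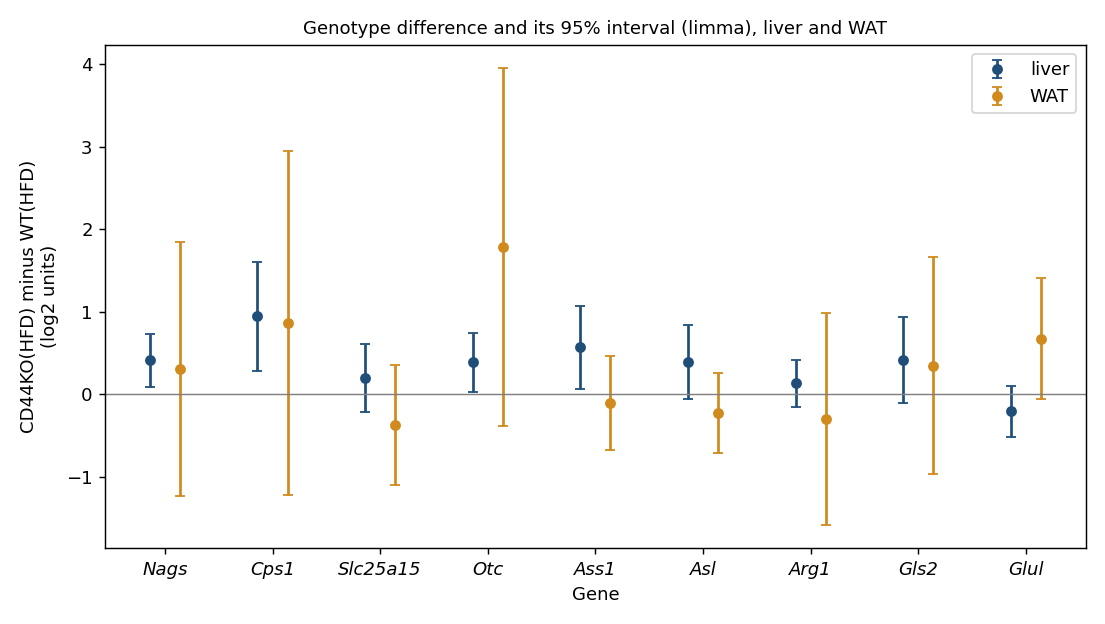
CD44KO(HFD) minus WT(HFD) on the log2 scale for the 9 tested members in liver and in WAT, with the 95% interval from limma (5 arrays per genotype and tissue). The interval was wider in WAT than in liver for every member, as for Cps1, 0.28 to 1.61 in liver and -1.21 to 2.95 in WAT.

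Cps1, Otc, Nags and Gls2 varied widely among the 10 WAT arrays, a grouping made after the values were seen. Cps1 read -2.68, -1.37, -5.76, -2.80 and -6.04 in WT(HFD) replicates 1 to 5 and -4.11, -3.91, -1.58, -2.26 and -2.44 in CD44KO(HFD). Otc read -3.38, -3.64, -8.19, -3.61 and -5.91 in WT(HFD) and -4.02, -4.68, -1.43, -2.82 and -2.83 in CD44KO(HFD). Cps1 was well above background on 10 of 10 WAT arrays and Otc on 9 of 10. Nags read -2.54, -2.67, -5.90, -3.22 and -4.86 in WT(HFD) and -4.28, -4.45, -2.27, -3.32 and -3.32 in CD44KO(HFD). Gls2 read -0.76, -1.70, -3.85, -1.77 and -3.68 in WT(HFD) and -2.46, -2.57, -1.22, -1.85 and -1.92 in CD44KO(HFD). In all 4 genes the spread within WT(HFD) was larger than that within CD44KO(HFD). The range over the WAT arrays was 4.67 for Cps1, 6.76 for Otc, 3.62 for Nags and 3.09 for Gls2, against 1.91, 0.98, 0.89 and 1.52 in liver. The other Otc probes, well above background on 5 and 3 of 10 WAT arrays, gave genotype differences of 1.08 (limma adjusted p = 0.68) and -3.25 (adjusted p = 0.23), of opposite sign. The second Nags probe, well above background on 6 of 10 WAT arrays, gave -0.80 (limma adjusted p = 0.718), where the brightest gave 0.31. For all 4 genes the lowest WAT arrays were WT(HFD) replicates 3 and 5. Alb, the main plasma protein made by hepatocytes, was lowest in the same arrays, with 2.90, 4.66, 0.61, 3.95 and 1.12 in WT(HFD) and 2.82, 2.60, 5.17, 4.23 and 3.95 in CD44KO(HFD). The summed level of the 9 hepatocyte markers was 1.86 to 5.67 in WT(HFD) and 3.37 to 6.04 in CD44KO(HFD), with 8 or 9 of them well above background on each array, and 0 of 9 passed the threshold between genotypes or an unadjusted p under 0.05 (limma). The part of liver transcripts in the values of these 4 members in WAT was not tested.

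**Figure D3:**
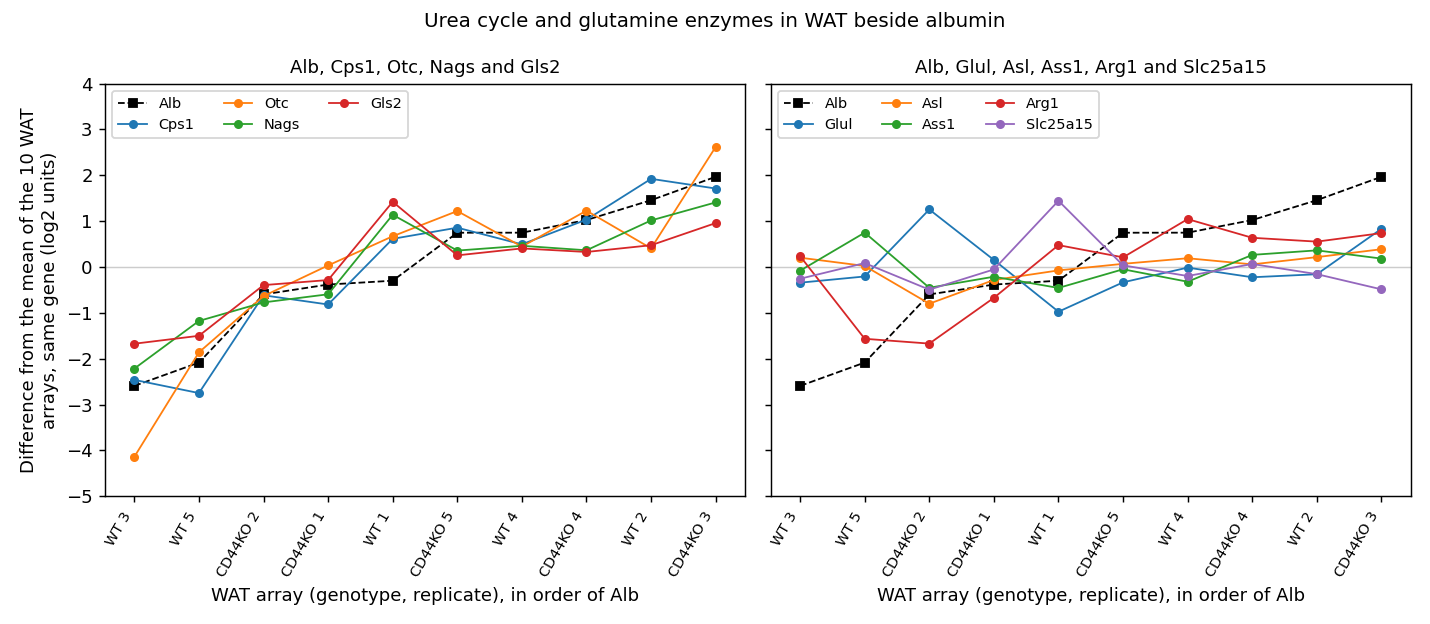
Signal of 9 members on the 10 WAT arrays, each as the log2 difference from its own mean over those arrays, with the arrays in the order of albumin (Alb, dashed line). Cps1, Otc, Nags and Gls2 were lowest on WT(HFD) replicates 3 and 5, where Alb was 0.61 and 1.12, whereas Glul, Asl, Ass1, Arg1 and Slc25a15 took other orders.

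The other members did not share that order. The range over the WAT arrays was 1.21 for Ass1, 1.19 for Asl and 1.94 for Slc25a15. Ass1 was well above background on 10 of 10 WAT arrays, with -0.14 ± 0.50 in WT(HFD) and -0.24 ± 0.29 in CD44KO(HFD) (SD, n = 5 each), and Asl had 1.43 ± 0.13 and 1.20 ± 0.45. Arg1 had a range of 2.71, with its lowest levels of -2.45 in CD44KO(HFD) replicate 2 and -2.35 in WT(HFD) replicate 5. Arg2 was well above background on WT(HFD) replicates 1 and 5, at -1.69 and -2.69, and on 0 of 5 CD44KO(HFD) arrays. Markers of another tissue were high on the same 2 arrays. The summed level of the 8 kidney tubule markers was 1.55 and 1.92 on WT(HFD) replicates 1 and 5, with 7 and 5 of them well above background, against -2.90 to -1.49 and 1 to 4 of them on the other 8 WAT arrays. WT(HFD) replicate 1, the array with 89.5% of spots well above background, also had 9 of 10 epididymis markers well above background, against 1 to 6 on the other arrays, and 8 of 9 exocrine pancreas markers, against 3 to 7. Its neutrophil markers were well above background for 9 of 9 genes, against 4 to 6 on the other WAT arrays. On WT(HFD) replicate 5 the summed level of the T cell markers was the highest of the WAT arrays, 3.26. The part of these tissues and cells, or of a signal raised over a whole array, in the Arg2 values was not tested. No genotype difference is read from the Arg2 values.

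Glul, which adipocytes also express, had the smallest unadjusted p of the members in WAT. It read 3.43, 4.25, 4.07, 4.39 and 4.20 in WT(HFD) and 4.56, 5.66, 5.24, 4.18 and 4.07 in CD44KO(HFD). CD44KO(HFD) replicates 1, 2 and 3 lay above every WT(HFD) array and replicates 4 and 5 lay among them. The difference was 0.68 ± 0.33 (SE), a 1.60-fold higher mean, with a limma adjusted p of 0.366 and an exact permutation p of 0.119. Within the 2 slides that held both genotypes it was 0.95 and 1.07, the latter with 1 CD44KO(HFD) array against 3 WT(HFD) arrays. The former rests on 2 WT(HFD) arrays, replicates 1 and 4. Replicate 1 had the lowest Glul level of the WAT arrays (3.43), the lowest adipocyte sum (8.67) and 89.5% of spots well above background. With array weights it was -0.06 (limma adjusted p = 0.846). The second and much dimmer Glul probe, well above background on 10 of 10 WAT arrays, gave 0.12 (limma adjusted p = 0.891). Of the cell type markers, the adipocyte sum was 8.67 to 9.56 in WT(HFD) and 9.43 to 10.09 in CD44KO(HFD) in WAT, and its part in the Glul values was not tested.

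Whether the genotype difference was the same in both tissues was tested with a genotype by tissue interaction in a fit of all 20 arrays. Of the 9 tested members 0 passed (limma), 1 differed at an unadjusted p under 0.05, and of the 28988 probes 1.15% passed and 15.8% differed at an unadjusted p under 0.05. That member was Glul, with -0.21 in liver and 0.68 in WAT, a difference of -0.88 ± 0.37 (SE; unadjusted p = 0.0283, adjusted p = 0.252). These values are those of its brightest probe alone. For Cps1 the difference between tissues was 0.07 ± 1.04 (adjusted p = 0.978), an error too large to compare them.

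WT(HFD) liver and WT(HFD) WAT differed for 9 of 9 tested members, all higher in liver, where 36.2% of all probes tested were higher in liver (limma, all 20 arrays). The lowest WT(HFD) liver array was above the highest WT(HFD) WAT array for each of them. The log2 difference was 9.06 for Nags, 8.95 for Gls2, 8.86 for Cps1, 7.88 for Ass1 and 7.11 for Arg1. For Otc it was 10.20, a value that rests in part on WT(HFD) WAT replicate 3, where Otc was not well above background. It was 4.38 for Asl (a 20.9-fold higher mean), 3.62 for Slc25a15 and 2.43 for Glul (5.39-fold, limma adjusted p = 1.27e-07). The tissues were on different slides and scanners and were scaled to different percentiles, so that tissue and array batch cannot be told apart.

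Genes around the cycle were counted in 5 lists, and in liver 9 of their 70 tested genes passed the threshold, 6 higher and 3 lower in CD44KO(HFD) (limma, 13.6% of all probes passed). Among the glutamate and aminotransferase genes 2 of 12 rose and 1 fell, with a median of 0.26. Prodh and Aldh4a1, the enzymes that take proline to glutamate, rose by 0.72 ± 0.20 and 0.64 ± 0.13 (SE; adjusted p = 0.0448 and 0.0179). Gpt2, the mitochondrial alanine aminotransferase, fell by 0.50 (adjusted p = 0.0269), and Pycr1, which makes proline, had a difference of -1.21 (adjusted p = 0.275) with 3 of 10 arrays well above background.

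Among genes of amino acid breakdown 2 of 18 rose and 0 fell, 17 differences were positive and the median was 0.47. Over all probes 7.85% rose, 5.75% fell and the median was 0.08. At an unadjusted p under 0.05, 12 of the 18 differed (limma), where 32.2% of all probes did. Agxt, the alanine-glyoxylate aminotransferase, rose by 0.85 ± 0.24 (SE; limma adjusted p = 0.0416). Tdo2, which opens the tryptophan ring, rose by 0.69 ± 0.18 (adjusted p = 0.0327). Hal, the histidine lyase, and Hpd, of tyrosine breakdown, had differences of 0.87 (adjusted p = 0.0839) and 0.82 (adjusted p = 0.0886).

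Among the transporters 1 of 16 rose and 2 fell, with a median of 0.31, where 7.85% of all probes rose, 5.75% fell and their median was 0.08. Rhbg, an ammonia channel of pericentral hepatocytes, fell by 1.39 on the log2 scale, from 2.63 ± 0.38 in WT(HFD) to 1.25 ± 0.47 in CD44KO(HFD) (SD, n = 5 each; limma adjusted p = 0.0128), with no overlap between genotypes. Slc1a5, a glutamine transporter of the plasma membrane, fell by 0.81 (adjusted p = 0.0333). Slc25a12, a mitochondrial aspartate-glutamate carrier, rose by 0.47 (adjusted p = 0.0241), and Slc25a2, the second ornithine carrier, had a difference of 0.72 (adjusted p = 0.0917).

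Among genes of arginine use 0 of 11 passed and 3 differed at an unadjusted p under 0.05 (limma), against 32.2% of all probes, with a median of 0.09. The largest differences were those of Agmat (0.36, adjusted p = 0.13), Odc1, the ornithine decarboxylase (0.30, adjusted p = 0.0787), Sms, the spermine synthase (-0.22, adjusted p = 0.0911), and Gamt (0.20, adjusted p = 0.285). Among accessory and control genes 1 of 13 passed, against 13.6% of all probes, with a median of 0.22 against 0.08. Cebpa, a hepatocyte transcription factor, rose by 0.28 ± 0.08 (SE; limma adjusted p = 0.0384). Klf15, a regulator of amino acid breakdown genes, had 0.75 (adjusted p = 0.0684), Creb3l3 had 0.34 (adjusted p = 0.0659) and Sirt3, a mitochondrial deacetylase, had 0.31 (adjusted p = 0.111).

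**Figure D4:**
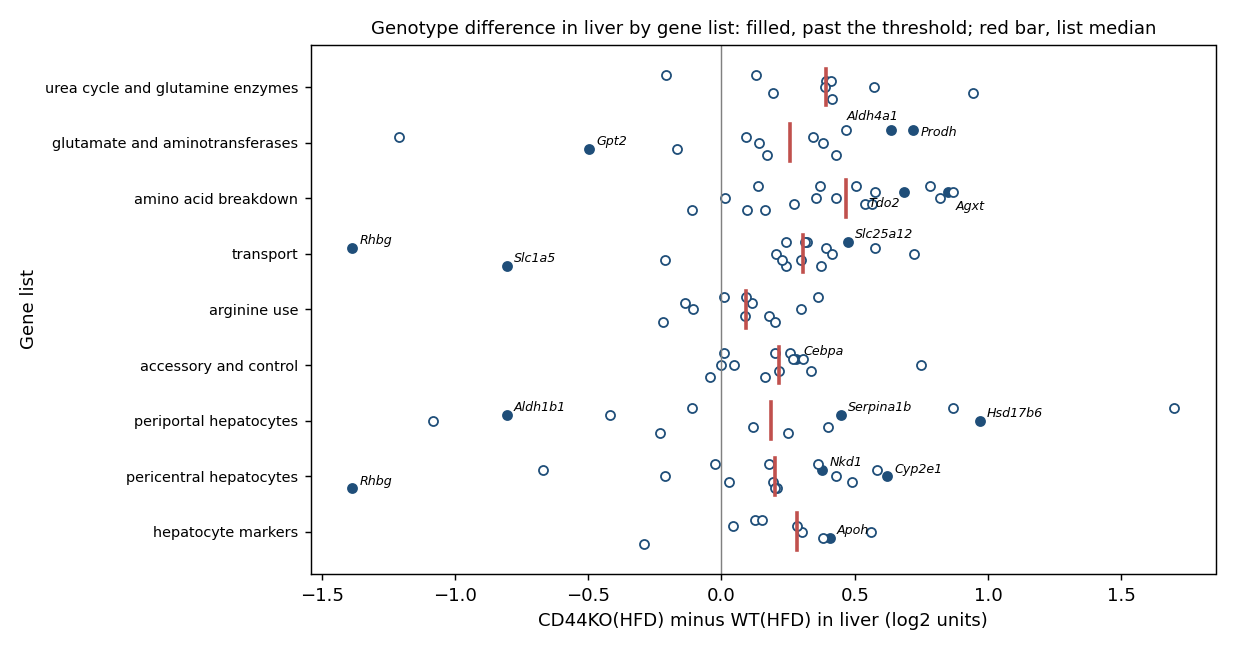
CD44KO(HFD) minus WT(HFD) in liver on the log2 scale for every tested gene of 9 lists, each point 1 gene. Filled and named points passed the threshold and the red bar is the median of the list. None of the 9 urea cycle and glutamine enzymes passed, and their median was 0.39.

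The members work in opposite zones of the liver lobule, and the zone lists did not move as a block. Over all probes tested in liver 7.85% rose, 5.75% fell and the median was 0.08. Of the periportal genes 2 of 12 rose, 1 fell and the median was 0.19. Hsd17b6, a steroid dehydrogenase, rose by 0.97 (limma adjusted p = 0.0167) and Serpina1b, a plasma protease inhibitor, by 0.45 (adjusted p = 0.0453). Aldh1b1, a mitochondrial aldehyde dehydrogenase, fell by 0.81 (adjusted p = 0.0161), and Agxt2l1 had a difference of 1.70 (adjusted p = 0.0772). Of the pericentral genes 2 of 15 rose, 1 fell and the median was 0.20. Cyp2e1, a cytochrome P450, rose by 0.62 (adjusted p = 0.0491) and Nkd1, a target of Wnt signalling, by 0.38 (adjusted p = 0.0355). Rhbg, given above, fell, and Slc13a3 had a difference of -0.67 (adjusted p = 0.0576).

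Of the 88 genes of these 7 lists tested in WAT, 0 passed the threshold and 15 differed at an unadjusted p under 0.05 (limma), a share near the 14.9% of all probes. In liver the number that passed in the first 5 lists depended on single arrays, and so did the share of all probes that passed. Without any 1 of WT(HFD) replicates 1, 2, 3 and 5 or CD44KO(HFD) replicates 1, 2, 4 and 5, the number was 2 to 4. In those fits 3.48% to 9.07% of all probes passed. The number was 16 without WT(HFD) replicate 4, where 15.3% of all probes passed, and 20 without CD44KO(HFD) replicate 3, where 18.8% did.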

How the data were processed

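RNA of liver and WAT was hybridised with a single dye to 20 Agilent mouse arrays of 45018 spots. The intensity values used here are the linear processed signals that the authors deposited. Feature Extraction 9.5.3.1 had subtracted a spatial background surface, corrected a multiplicative trend and put estimates in place of the dimmest signals, and arrays had not been scaled to each other. The arrays held 41174 probes other than controls, and 22951 of these could be matched by accession to a RefSeq gene table.

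From these values, outlier spots were dropped, log2 was taken, each array was scaled to its 75th percentile and spots were averaged per probe. A spot well above background exceeds it by 13 SD, per the file headers. A probe was tested in a tissue when at least 3 of the 5 arrays of either genotype were well above background. The tests used limma 3.58.1 (R 4.3.3), and p-values were adjusted by Benjamini-Hochberg over every probe tested, with 0.05 as the threshold. For single members all relabellings of the 10 arrays of a tissue gave an exact permutation p, two-sided and not adjusted for the number of members or probes. The summed level of a list is the log2 of the sum of its linear levels. The labels number the replicates but do not state the animals, so p-values measure the spread between these samples. The number of arrays limits the precision.

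The members and lists were chosen with earlier results of these data known. In each list up to 4 genes are named, those past the threshold in liver with the largest difference first. The alternatives were normexp background correction, quantile normalization, median scaling, other filters, all arrays in 1 fit, slide or replicate blocks, array weights, the dimmest tested probe of a member and leaving out each array. A fit with separate variances for the tissues was added after seeing the data. The test was tried on simulated data.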

Additional observations from a re-analysis of the deposited data

Results flagged for a closer look

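Among 40 sets of 5 arrays (10 members in 4 groups), 2 held an array far from the other 4, about as many as chance gives, which flags about 1 in 20 such groups. Arg2 in WAT of CD44KO(HFD) replicate 5 read -8.78, below -7.59 to -7.34 in the other arrays of that group, none of which was well above background. Slc25a15 in WAT of WT(HFD) replicate 1 read -2.26, above -3.96 to -3.62 in the other arrays of that group. That array is the one with 89.5% of spots well above background. Its markers well above background included 9 of 10 for epididymis, 7 of 8 for kidney tubule and 9 of 9 for neutrophils, and their part in the value was not tested.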

How the results depend on the processing

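The number of members past the threshold in liver was 0 as reported, 1 with the slide as a block, 1 with array weights and 0 to 3 with 1 array left out, and it was 0 with the replicate block. Without CD44KO(HFD) replicate 3 it was 3 (Cps1, Nags and Ass1), where 18.8% of all probes passed. It was 1 (Cps1) without WT(HFD) replicate 4, with the slide block and with array weights. In those fits 15.3%, 17.3% and 19.7% of all probes passed. The count was 0 in WAT and 0 for the difference between tissues under every alternative run, with the separate fits included, and it was 9 for WT(HFD) liver against WT(HFD) WAT under every alternative run. Genes of the 5 surrounding lists past the threshold in liver numbered 9 as reported, 1 with normexp, 2 without a filter on dim probes, 1 with all 20 arrays in 1 fit, 14 with the slide block, 15 with array weights, 3 with the replicate block and 2 to 20 with 1 array left out. Over all probes in liver, 3358 (13.6%) passed as reported and 641 to 4859 under the alternatives. The share was 2.6% with normexp, 2.49% without a filter on dim probes and 2.93% with all 20 arrays in 1 fit. With the slide block it was 17.3%, with array weights 19.7%, with the replicate block 5.38% and with 1 array left out 3.48% to 18.8%. Deviations of same-numbered WT(HFD) and CD44KO(HFD) arrays correlated at -0.04 to 0.42 in liver and at -0.21 to 0.09 in WAT, which does not settle whether the replicate numbers pair the arrays. Whether liver and WAT arrays came from the same mice was not tested, and the main fits of all 20 arrays treat them as independent. The sign of a member's liver difference held under all 20 alternatives for each tested member but Arg1, which was 0.13 as reported and -0.0034 with normexp. In WAT 16 values took the other sign, among them Otc at its dimmest tested probe (-3.25). The causes were not tested. Precision is limited by the 5 arrays per group and, in WAT, by signals near background.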
